A study of Mus musculus with 9 samples.

Results

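The genes described here answer type I interferon, the antiviral cytokine family of interferon beta and the interferon alphas. They were taken from a fixed list of 41 gene symbols: the interferon receptor, its transcription factors, RNA sensors and induced effectors. Each gene was read from its single-symbol probe set with the highest mean over the 9 arrays, which gave values for 38 of the 41. Oas1a, Dtx3l and Ifi44 had no probe set naming them alone and were not analysed here. The other genes of the series, 22180 with the members included, served as background.

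Affymetrix arrays measured expression in myeloid cells from the wounded plantar hindpaw at 24 h after incision. The mice were C57BL/6J males, 8 weeks old. The sorted cells carried the integrin chain CD11b and lacked the neutrophil protein Ly6G. They were sorted by surface Ly6C into 3 gates, Ly6C high, Ly6C medium and Ly6C low, with 3 arrays each. All gates came from wounded tissue collected on one day, and no unwounded group was analysed here. The labels do not say whether the arrays of a gate are separate animals or pools, so p-values measure the spread between these arrays, which may be technical. Values are log2 intensities, in which a difference of 1 is a doubling. Differences were tested with limma across all genes, and adjusted p means the Benjamini-Hochberg value over all genes tested, with a threshold of 0.05.

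Type I interferon binds a receptor made of Ifnar1 and Ifnar2, whose kinases activate transcription factors that include STAT2. STAT2 acts in a complex with IRF9, which binds a DNA element, the interferon-stimulated response element (ISRE), in the promoters of induced genes. The products sense viral RNA, block its translation or entry, and feed back on the pathway; IRF7 in turn drives more interferon. Monocytes are known to keep many of these genes active and to raise them quickly at sites of tissue damage. Fewer cells of a type and less RNA per cell cannot be told apart in these bulk samples.

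Promoter sequences are shown for members with and without this element, which differ in how they vary over the arrays. The windows came from RefSeq (build GRCm38.p6) and span 250 bases before to 50 after a gene's start. They were found for 32 members, 29 of them measured. The ISRE core, GAAA, any 2 bases and GAAA again, on either strand and with overlapping matches counted, was found for 15 of the 32, against 3.99% of all genes with a window and 3.44% of all windows of this length. The GAS element, best known from the answer to interferon gamma, TTCNNNGAA, reads the same on both strands and was found for 11 of the 32, against 9.55% of all genes. Below are the 130 bases before the start, on the gene's strand, with ISRE core matches in capitals. Oas3 (chr5:120777660-120777789, minus strand) had 1 match, at -75 to -66. Isg15 (chr4:156200819-156200948, minus strand) had 3 overlapping matches between -78 and -57. Ifit1 (chr19:34640759-34640888, plus strand) had matches at -104 to -95 and -85 to -76. Rsad2 (chr12:26456453-26456582, minus strand) had 1 match, at -120 to -111. Irf7 (chr7:141266425-141266554, minus strand) and Ifitm6 (chr7:141016893-141017022, minus strand) had no match in their windows, which says only that these letters are not there; Ifitm6 had a GAS match at -10 to -2.
Oas3: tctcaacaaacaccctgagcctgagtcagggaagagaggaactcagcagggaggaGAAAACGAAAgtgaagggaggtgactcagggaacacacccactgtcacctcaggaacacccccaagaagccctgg
Isg15: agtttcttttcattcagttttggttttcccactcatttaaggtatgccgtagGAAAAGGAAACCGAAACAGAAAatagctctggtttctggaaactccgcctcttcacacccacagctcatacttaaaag
Ifit1: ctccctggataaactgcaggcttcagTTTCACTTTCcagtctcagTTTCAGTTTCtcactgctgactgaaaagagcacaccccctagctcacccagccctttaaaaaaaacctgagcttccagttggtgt
Rsad2: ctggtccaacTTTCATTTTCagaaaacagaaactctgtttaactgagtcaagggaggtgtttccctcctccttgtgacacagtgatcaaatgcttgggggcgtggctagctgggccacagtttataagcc
Irf7: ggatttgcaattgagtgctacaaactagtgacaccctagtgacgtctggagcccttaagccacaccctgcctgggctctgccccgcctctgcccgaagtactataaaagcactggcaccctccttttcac
Ifitm6: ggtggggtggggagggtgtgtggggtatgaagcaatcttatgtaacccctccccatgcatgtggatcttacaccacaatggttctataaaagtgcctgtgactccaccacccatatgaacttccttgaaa

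The arrays were of like brightness, with medians of 3.93 to 4.10. Across genes, correlations were 0.983 to 0.989 within gates and 0.964 to 0.989 between gates. Among the transcripts of the sort, Ly6c2 followed the labels, at 12.27, 11.22 and 8.33 in high, medium and low (gate means). Ly6g was at 3.02, 3.06 and 3.58, and read 2.85, 4.61 and 3.28 on low replicates 1, 2 and 3. On low replicates 1, 2 and 3, Ly6c2 read 7.69, 7.90 and 9.40, so replicate 3 stood nearer to the other gates. The monocyte markers Chil3 (7.03, 7.53 and 9.16) and Vcan (6.47, 7.31 and 8.23) were also highest there among the low arrays. Other cells' markers also moved with the gates. Fibroblast markers fell in low against high for 8 of 10 measured (0 rose). Their summed level, the log2 of the summed linear intensities, ranged over 11.62 to 12.79 on high arrays, 9.57 to 9.63 on medium arrays and 8.64 to 8.80 on low arrays. Classical monocyte markers fell in low against high for 5 of 6 (0 rose), by up to a log2 difference of -3.94 for Ly6c2. F13a1 went the other way without passing the threshold (0.88, adjusted p = 0.0541) and was the brightest of the 6 on each low array. Their summed level, to which F13a1 adds most in low, was 13.53 to 13.67, 12.85 to 12.97 and 11.89 to 11.97. Tissue macrophage markers rose in low against high for 7 of 9 (1 fell) and conventional dendritic cell markers for 5 of 8 (0 fell). Eosinophil markers rose for 3 of 6 (summed level 6.35 to 6.54 in high and 7.39 to 7.73 in low). Natural killer cell markers rose for 2 of 9 (7.37 to 7.66 and 8.72 to 9.29), and endothelial markers fell for 2 of 10 (8.52 to 9.11 and 7.81 to 8.41). Keratinocyte markers rose for 2 of 12 and mast cell markers for 1 of 8 (0 fell in either list). Of 10 neutrophil markers, Mmp8 and Csf3r fell (log2 differences -2.78 and -1.13) and Retnlg rose (3.91). Of 9 markers of plasmacytoid dendritic cells, the professional makers of interferon alpha, limma passed 0 in low versus high (3 at an unadjusted p under 0.05), and the summed level was 9.64 to 10.23, 9.77 to 9.99 and 9.68 to 9.90. Tcf4 (gate means 8.57, 8.59 and 8.88) and Irf8 (8.31, 8.58 and 7.91) were the brightest of these 9, while Siglech was at 4.25, 4.42 and 4.56. The highest sum, 10.23, was on high replicate 2, where Ly6d read 8.44. This sum therefore says little about the dimmer markers. The part of these cell types in the results below was not tested.

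In Ly6C low cells the interferon genes stood lower than in Ly6C high cells. Of the 38 measured members, 13 were lower in low and 0 higher with limma, and at an unadjusted p under 0.05 there were 24 lower and 0 higher. Over all genes, 2.32% were called lower in low and 3.35% higher. At the unadjusted threshold, 1654 of the 22180 genes were lower and 2306 higher. The difference was negative for 37 of the 38 members, against 47.3% of all genes. The median difference was -0.67 on the log2 scale, against 0.01 over all genes. Every low array lay below every high array for 22 members, which held for 8.76% of all genes. Because the members were picked with such results known, these counts describe the list. The count of 13 fell to 8 without high replicate 1, 2 or 3, medium replicate 2 or low replicate 2, and to 7 without low replicate 1. Zbp1, Stat2, Irf7, Oas3, Ifit2, Mx1 and Ifitm6 stayed past the threshold without each of the 9 arrays in turn. Without the 3 arrays numbered 3, which stand apart for several members, it was 11, of which 9 were among the 13.

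**Figure D1:**
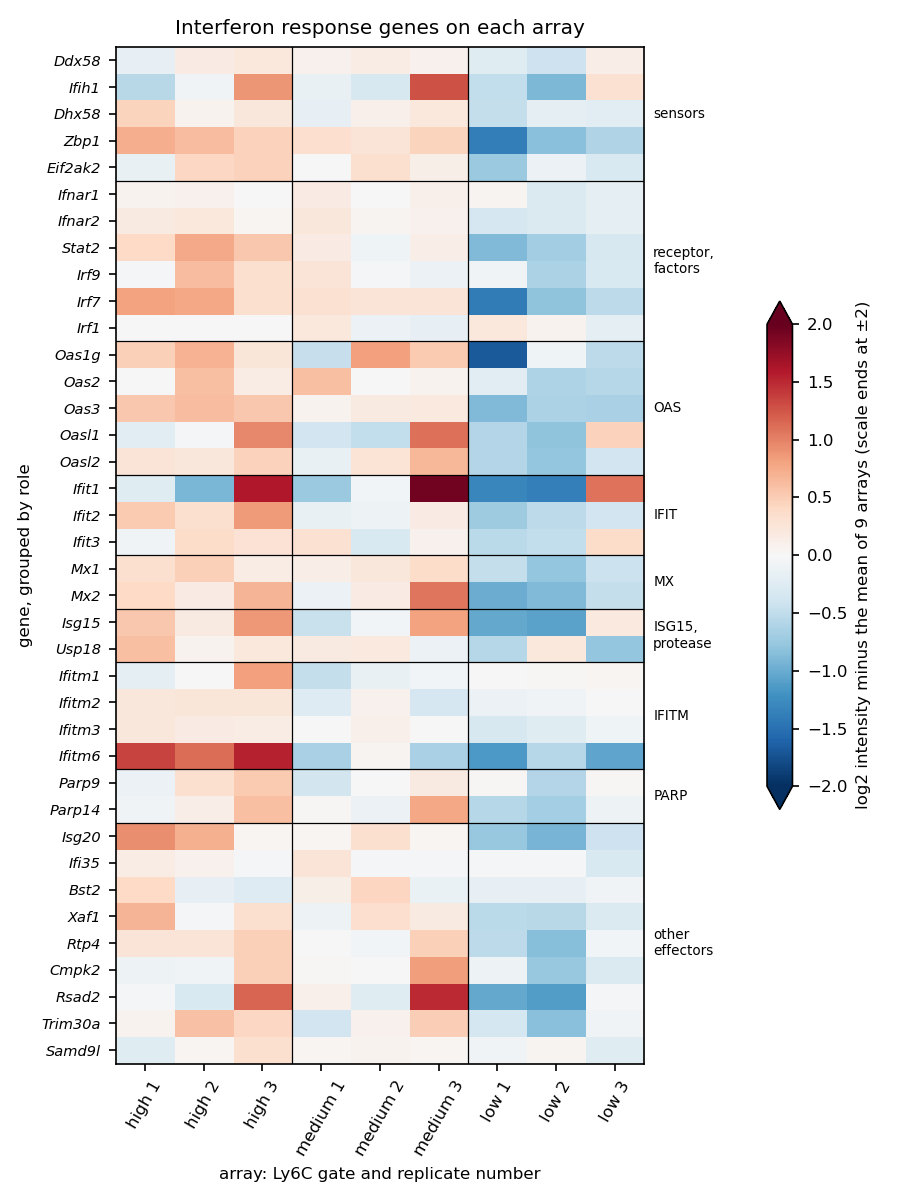
Log2 intensity of the 38 measured interferon genes on the 9 arrays, each minus the gene's mean over the arrays; rows are genes grouped by role and columns are arrays by Ly6C gate and replicate number. Most rows are blue in the low gate, Ifitm6 is deep red only in high, and Ifit1, Rsad2, Oasl1 and Ifih1 are reddest on the arrays numbered 3.

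The receptor chains differed little. Ifnar1 was at 9.67, 9.70 and 9.60 on the high arrays (replicates 1, 2 and 3, the order used throughout), 9.76, 9.62 and 9.70 on medium and 9.66, 9.32 and 9.42 on low. These gates overlapped, and low minus high was -0.19 (SE 0.11, adjusted p = 0.446). The other chain, Ifnar2, stood at 10.59, 10.62 and 10.45 in high, 10.64, 10.47 and 10.49 in medium and 10.08, 10.12 and 10.23 in low. Every low array lay below every high and medium array, a 1.33-fold difference from high (adjusted p = 0.0438). That call was lost without any one of 8 arrays, all but medium replicate 1 (up to 0.139 without low replicate 1).

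Among the transcription factors downstream of the receptor, Irf7 and Stat2 fell in low, and Irf9 and Irf1 were not past the threshold. Irf7, the factor that amplifies interferon production, read 10.28, 10.25 and 9.79 in high, 9.78, 9.74 and 9.74 in medium and 8.07, 8.66 and 8.95 in low. High and medium nearly touched, low lay well below both, and it was 2.91-fold below high (log2 difference -1.54, SE 0.22, adjusted p = 0.00476). Stat2, a factor activated at the receptor, read 8.45, 8.80 and 8.60 in high, 8.21, 7.96 and 8.19 in medium and 7.17, 7.36 and 7.73 in low. Its gates were also separate, and low was 2.29-fold below high (adjusted p = 0.00389). Irf9, the DNA-binding partner of STAT2, was at 6.92, 7.58 and 7.28 in high, 7.23, 6.94 and 6.85 in medium and 6.89, 6.34 and 6.66 in low. All its low arrays were below all high arrays, but the difference of -0.63 was not past the threshold (adjusted p = 0.116). Irf1, which also answers interferon gamma, read 6.86, 6.85 and 6.86 in high, 7.06, 6.73 and 6.70 in medium and 7.06, 6.93 and 6.65 in low. Its 3 gate means lay between 6.83 and 6.88, and the difference of 0.03 between low and high (adjusted p = 0.968) turned to -0.03 with quantile normalization repeated and -0.01 with arrays centred. Irf1 was the single member whose difference was not negative in the deposited scaling.

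The nucleic acid sensors split. Zbp1, which recognises Z-form nucleic acids and can start necroptosis, was at 9.69, 9.59 and 9.43 in high, 9.31, 9.23 and 9.41 in medium and 7.59, 8.14 and 8.37 in low. The low arrays stood apart from both other gates, 2.91-fold below high (log2 difference -1.54, SE 0.18, adjusted p = 0.00223). The helicases that detect viral RNA in the cytosol and the kinase Eif2ak2, which halts translation, were not past the threshold. Ddx58, which encodes RIG-I, differed by -0.24 between low and high (SE 0.16, adjusted p = 0.508), with overlapping arrays. Dhx58, a regulator of these helicases, was at 7.11, 6.73 and 6.89 in high and 6.18, 6.48 and 6.46 in low, without overlap (-0.53, SE 0.15, adjusted p = 0.0715; 0.0331 with quantile normalization repeated). Eif2ak2 differed by -0.63 (SE 0.20, adjusted p = 0.126), with 1 low array inside the range of high.

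Among the oligoadenylate synthetases, which make the messenger that activates RNase L, Oas3 and Oasl2 were called. Oas3 showed the least spread of the larger differences, at 8.19, 8.28 and 8.21 in high, 7.74, 7.84 and 7.86 in medium and 6.78, 7.03 and 7.01 in low. The gates did not overlap anywhere, and low was 2.44-fold below high (log2 difference -1.29, SE 0.10, adjusted p = 0.000374). Oasl2 read 8.46, 8.43 and 8.66 in high, 8.05, 8.48 and 8.87 in medium and 7.62, 7.42 and 7.82 in low. Medium overlapped high and low lay below both, 1.86-fold below high (adjusted p = 0.033). This call was lost without high replicate 1, 2 or 3, medium replicate 2, or low replicate 1 or 2 (up to 0.117 without low replicate 2), and without the arrays numbered 3 together (0.0607). Oas2 differed by -0.71 between low and high (SE 0.21, adjusted p = 0.0939), with every low array below every high array. Oas1g read 8.20, 8.43 and 7.97 in high and 6.05, 7.64 and 7.21 in low, also without overlap but widely spread (-1.24, SE 0.42, adjusted p = 0.148). It has a close paralogue in Oas1a, and probes of one could read the other.

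Of the IFIT genes, whose proteins bind foreign RNA, only Ifit2 passed. It stood at 6.38, 6.19 and 6.72 in high, 5.72, 5.76 and 6.03 in medium and 5.16, 5.34 and 5.48 in low. The 3 gates were separate, and low was 2.15-fold below high (adjusted p = 0.00507). Ifit3 differed by -0.42 between low and high (SE 0.26, adjusted p = 0.481), and Ifit1 is described with the arrays numbered 3. Both Mx genes, which encode dynamin-like antiviral GTPases, were lower in low. Mx1 was at 5.64, 5.80 and 5.46 in high, 5.45, 5.55 and 5.69 in medium and 4.84, 4.54 and 4.89 in low. High and medium overlapped, while low lay below both, 1.83-fold below high (adjusted p = 0.00701). C57BL/6 mice carry a deleted Mx1 allele, so this is a transcript level with no intact protein behind it. Mx2 read 5.69, 5.45 and 5.96 in high, 5.17, 5.45 and 6.37 in medium and 4.30, 4.41 and 4.81 in low, with low below both other gates and 2.29-fold below high (adjusted p = 0.0475). The Mx2 call was lost without any of 7 arrays in turn, high replicates 1 to 3, medium replicate 2 and low replicates 1 to 3 (up to 0.158 without low replicate 1).

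The IFITM family, membrane proteins that hinder virus entry, held the largest difference of the list. Ifitm6 was at 10.08, 9.84 and 10.26 in high, 8.08, 8.77 and 8.08 in medium and 7.56, 8.14 and 7.66 in low. High stood above both other gates, which overlapped, and low was 4.82-fold below high (log2 difference -2.27, SE 0.23, adjusted p = 0.00122). Ifitm3, which acts in endosomes, was at 11.95, 11.89 and 11.88 in high, 11.71, 11.82 and 11.72 in medium and 11.40, 11.48 and 11.64 in low. Its gates were separate but close, with low 1.32-fold below high (adjusted p = 0.0459), a call lost without any of 8 arrays, all but low replicate 3 (up to 0.148 without low replicate 1). Ifitm2 read 10.98, 10.99 and 10.99 in high, 10.50, 10.83 and 10.41 in medium and 10.63, 10.68 and 10.76 in low (adjusted p = 0.234 for low versus high). Both other gates lay below high for Ifitm2, and low lay within the range of medium. Ifitm1 read 7.85, 8.02 and 8.85 in high, 7.55, 7.88 and 7.98 in medium and 8.02, 8.05 and 8.07 in low (adjusted p = 0.787). High overlapped both other gates for Ifitm1, and all low arrays were above all medium arrays.

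Among the remaining effectors, Isg20 and Xaf1 were lower in low. Isg20, an exonuclease that degrades RNA, was at 7.74, 7.53 and 6.85 in high, 6.84, 7.13 and 6.84 in medium and 6.05, 5.88 and 6.39 in low. Low lay below both other gates, 2.40-fold below high (adjusted p = 0.015), and the call was lost without high replicate 2, low replicate 1 or low replicate 2 (up to 0.0615 without low replicate 2). Xaf1, a promoter of cell death, read 8.86, 8.16 and 8.50 in high, 8.08, 8.53 and 8.36 in medium and 7.65, 7.62 and 7.90 in low. Low lay below both other gates, 1.72-fold below high (adjusted p = 0.0457), a call lost without any of 8 arrays, all but high replicate 2 (up to 0.143 without low replicate 1), and without the arrays numbered 3 together (0.191). The restriction factor gene Bst2, which tethers budding virus, differed by -0.13 between low and high (SE 0.19, adjusted p = 0.839), and Samd9l, an inhibitor of translation, by -0.13 (SE 0.15, adjusted p = 0.774), both with overlapping arrays. Rtp4, a receptor chaperone, read 8.81, 8.82 and 9.04 in high, 8.55, 8.51 and 9.03 in medium and 8.03, 7.70 and 8.50 in low. All its low arrays were below all high arrays, with a difference of -0.81 (SE 0.21, adjusted p = 0.064) that became -0.95 (0.0375) without the arrays numbered 3. The differences were -0.77 for Trim30a (SE 0.26, adjusted p = 0.14) and -0.49 for Cmpk2, a mitochondrial nucleotide kinase (SE 0.27, adjusted p = 0.417), each with no overlap between low and high. Ifi35 differed by -0.19 (SE 0.12, adjusted p = 0.506). The ADP-ribosyltransferases Parp14 and Parp9 differed by -0.67 and -0.42 (SE 0.27 and 0.23, adjusted p = 0.223 and 0.4), Parp14 without overlap. In all, 25 members were not past the threshold, with differences from -1.24 to 0.03 and 11 of them at an unadjusted p under 0.05. For 9 of the 25, every low array was below every high array.

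**Figure D2:**
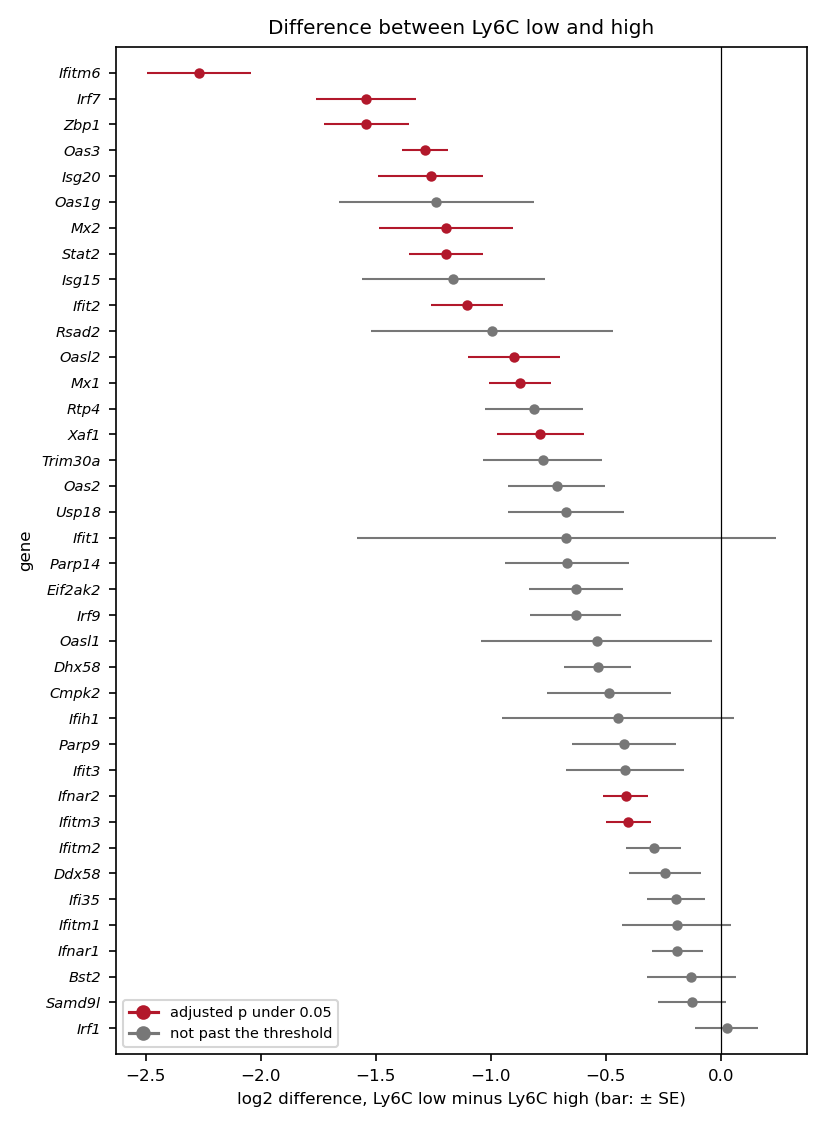
Log2 difference between Ly6C low and Ly6C high for each of the 38 measured genes (horizontal axis), with bars of 1 standard error from limma; red marks the 13 genes past the adjusted threshold. Ifitm6 lies farthest left at -2.27, Irf1 alone lies right of 0, and the widest bar belongs to Ifit1 (SE 0.91).

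The mean of Ly6C medium lay between those of the other gates for the 13 members called in low versus high, and nearer to high for all of them but Ifit2 and Ifitm6. Of the 38, limma called 1 lower in medium than in high, Ifitm6, and 0 higher (5 lower and 0 higher at an unadjusted p under 0.05). Over all genes, 0.198% were called lower and 0.0406% higher, and at the unadjusted threshold 845 of 22180 were lower and 826 higher. The difference was negative for 29 members, against 43.1% of all genes, with a median of -0.16. Every medium array lay below every high array for 8 members, against 4.93% of all genes. Ifitm6 was lower in medium by a log2 difference of -1.75 (SE 0.23, adjusted p = 0.0215). This call was lost without high replicate 1, 2 or 3, medium replicate 1 or 3, or low replicate 3 (up to 0.125 without medium replicate 1), when only the medium and high arrays were fitted (0.117), and without the arrays numbered 3 together (0.291). For the 13 members called in low versus high, the medium difference from high was a share of the low difference from high that ran from 3.24% for Mx2 to 77.1% for Ifitm6. It was 5.78% for Oasl2, 7.87% for Mx1, 16.5% for Zbp1, 23.2% for Irf7, 32.2% for Oas3, 41.4% for Stat2 and 53.8% for Ifit2. These shares carry the error of both differences and share the high arrays.

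Between low and medium, limma called 4 members lower in low and 0 higher (20 lower and 0 higher at an unadjusted p under 0.05). Over all genes, 0.541% were called lower and 1.38% higher, and at the unadjusted threshold 1227 of 22180 were lower and 1894 higher. The 4 called members were Oas3 (log2 difference -0.87, SE 0.10, adjusted p = 0.00555), Zbp1 (-1.29, SE 0.18, adjusted p = 0.013), Mx1 (-0.81, SE 0.13, adjusted p = 0.0227) and Irf7 (-1.19, SE 0.22, adjusted p = 0.0316). Every low array was below every medium array for 17 members, against 7.58% of all genes, and the difference was negative for 35, against 53.9%. Oas3 stayed past the threshold without each array in turn. Zbp1 was lost without medium replicate 1 or 3 (up to 0.0613), Mx1 without medium replicates 1 to 3 or low replicates 1 or 2 (up to 0.094), and Irf7 without these 5 or high replicate 2 (up to 0.11). The count became 2 without medium replicate 1 or 2 or low replicate 1 or 2, and 1 without medium replicate 3. Without the arrays numbered 3 together, 0 were called (17 at an unadjusted p under 0.05), while the differences of these genes were then -0.88, -1.41, -0.81 and -1.39. Of the 10 fibroblast markers, 7 fell in medium against high, as Ifitm6 did, and 1, Dcn, fell in low against medium, where 6 had every low array below every medium array. The classical monocyte markers fell for 0 of 6 in medium against high (4 at an unadjusted p under 0.05) and for 4 of 6 in low against medium.

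**Figure D3:**
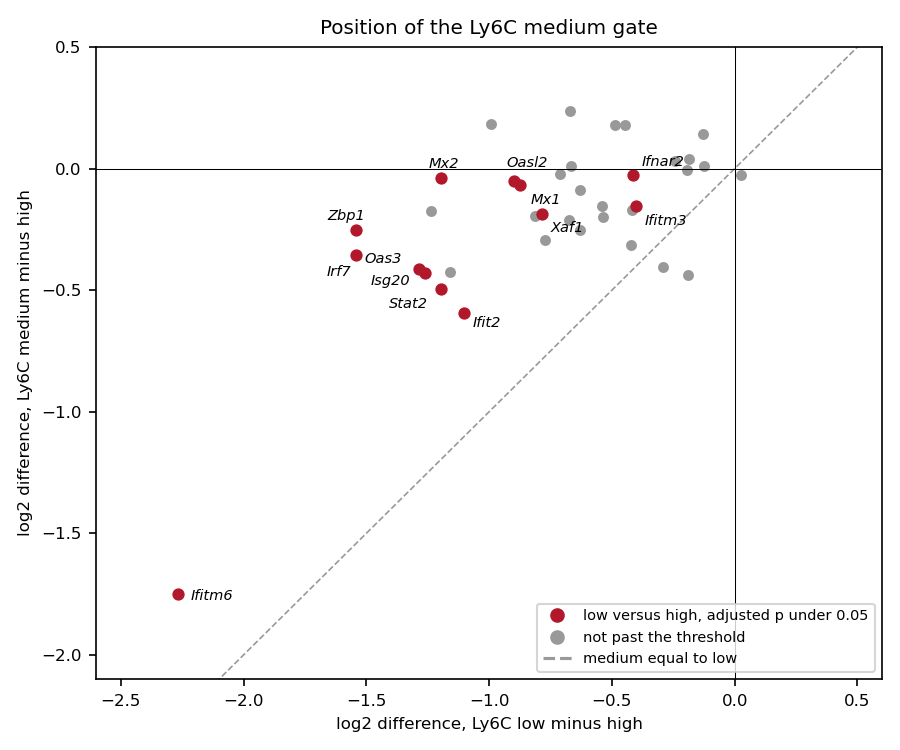
Log2 difference of Ly6C medium from high (vertical axis) against that of Ly6C low from high (horizontal axis) for the 38 measured genes; red marks the 13 called in low versus high, and the dashed line is where medium equals low. Both axes share the high arrays. Mx2, Oasl2, Mx1 and Ifnar2 lie near 0 on the vertical axis, and Ifitm6 lies alone at -1.75.

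Several members also varied with the replicate number. For 11 of the 38, the array numbered 3 was the highest in each of the 3 gates, against 4.64% of all genes; 1 member each was highest on the arrays numbered 1 and 2 (4.51% and 2.18% of all genes). The 11 were Ifih1, Oasl1, Oasl2, Ifit1, Ifit2, Mx2, Isg15, Ifitm1, Parp14, Rtp4 and Rsad2, named after their values were seen. Of these, Oasl2, Ifit2 and Mx2 were also among the 13 called in low versus high. The gap between the array numbered 3 and the mean of the other arrays of its gate ranged from 0.04, for Ifitm1 in low, to 2.42, for Ifit1 in low.

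Ifit1, which binds viral RNA lacking a self mark, showed the widest gap, at 7.19, 6.52 and 9.03 in high, 6.70, 7.38 and 9.37 in medium and 6.14, 6.07 and 8.53 in low. The arrays numbered 3 were above all 6 others, and the gates overlapped (low minus high -0.67, SE 0.91, adjusted p = 0.814). Rsad2, which encodes the antiviral enzyme viperin, read 8.01, 7.73 and 9.20 in high, 8.15, 7.80 and 9.54 in medium and 7.02, 6.93 and 8.02 in low. Its low arrays were also the lowest of each number, with a difference from high of -0.99 (SE 0.52, adjusted p = 0.388). With the replicate number as a block in the limma fit, the adjusted p of Rsad2 was 0.00681. Oasl1, which restrains the translation of Irf7, read 8.38, 8.58 and 9.57 in high, 8.23, 8.12 and 9.71 in medium and 8.02, 7.81 and 9.07 in low. Ifih1, which encodes the long-RNA sensor MDA5, read 7.80, 8.28 and 9.23 in high, 8.21, 8.02 and 9.62 in medium and 7.86, 7.45 and 8.66 in low. For both, each array numbered 3 was above all 6 arrays with other numbers, and low minus high was -0.54 and -0.45 (adjusted p = 0.692 and 0.764). Isg15, a ubiquitin-like modifier, read 9.49, 9.13 and 9.82 in high, 8.51, 8.89 and 9.75 in medium and 7.93, 7.88 and 9.14 in low. Its difference of -1.16 between low and high was not past the threshold (SE 0.40, adjusted p = 0.149), but was -1.41 (adjusted p = 0.0271) without the arrays numbered 3 and -1.57 (0.0387) without low replicate 3. The block gave it an adjusted p of 0.0152. Its protease Usp18 did not share the pattern, at 7.65, 7.11 and 7.26 in high, 7.22, 7.24 and 6.93 in medium and 6.47, 7.26 and 6.27 in low.

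The gene of interferon beta varied in the same way. Ifnb1 read 6.87, 5.86 and 8.87 in high, 6.41, 5.70 and 9.50 in medium and 4.57, 2.88 and 8.13 in low. The lowest array numbered 3 stood above the highest of the other 6 arrays, and the gates overlapped (low minus high -2.01, SE 1.42, adjusted p = 0.56). Among the arrays of each number, the low array was the lowest. With the replicate number as a block in the limma fit, the adjusted p of Ifnb1 was 0.0223. Cxcl10, a chemokine gene induced by interferons, was likewise highest on the arrays numbered 3, at 9.18, 8.98 and 10.40 in high, 8.55, 9.0 and 10.36 in medium and 8.44, 8.08 and 9.61 in low. Its low minus high was -0.81 (adjusted p = 0.553, and 0.03 with the block). By contrast, Oas3, Zbp1 and Irf7 were not highest on the array numbered 3 in each gate. Within the high gate Irf7 was lowest on replicate 3, and within the low gate it was highest on replicate 3. The printed promoters of Ifit1, Isg15, Rsad2 and Oas3 all hold an ISRE core, although Oas3 followed the gate and Ifit1 the array number. Of the members called in low versus high, Oas3, Stat2 and Ifitm3 had a core. Ifnar2, Irf7, Oasl2, Ifit2, Ifitm6, Isg20 and Xaf1 had windows without one, and Zbp1, Mx1 and Mx2 had no window. Among the members highest on the arrays numbered 3, Ifih1, Ifit1, Isg15 and Rsad2 had a core. Oasl1, Oasl2, Ifit2 and Ifitm1 had windows without one, and Mx2, Parp14 and Rtp4 had no window. Marker levels moved with the number too. The summed level of 10 neutrophil markers was highest on the array numbered 3 in each gate (9.48, 10.01 and 10.26 in high, 9.89, 10.22 and 11.16 in medium, 9.26, 9.94 and 11.42 in low). Of these markers, S100a8, S100a9, Cxcr2 and Mmp8 were each highest there in every gate. Ly6g, Csf3r, Retnlg, Camp, Ltf and Ngp were not. The brightest on the arrays numbered 3 were S100a8 and S100a9 in medium (10.07 and 9.29) and low (10.37 and 9.42). The summed level of 9 tissue macrophage markers was lowest on the arrays numbered 3 (12.10, 12.11 and 11.70 in high, 12.55, 12.66 and 12.21 in medium, 13.46, 13.42 and 13.19 in low). The sum of 8 mast cell markers was also highest there (7.82, 7.74 and 8.45 in high, 7.28, 7.40 and 8.04 in medium, 8.08, 7.72 and 8.50 in low). Of the 6 classical monocyte markers, Vcan and Chil3 were highest on the array numbered 3 in each gate. Ly6c2, Ccr2, F13a1 and Plac8 were not. The part of these cells in the pattern was not tested, and the labels do not say what arrays of one number share.

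**Figure D4:**
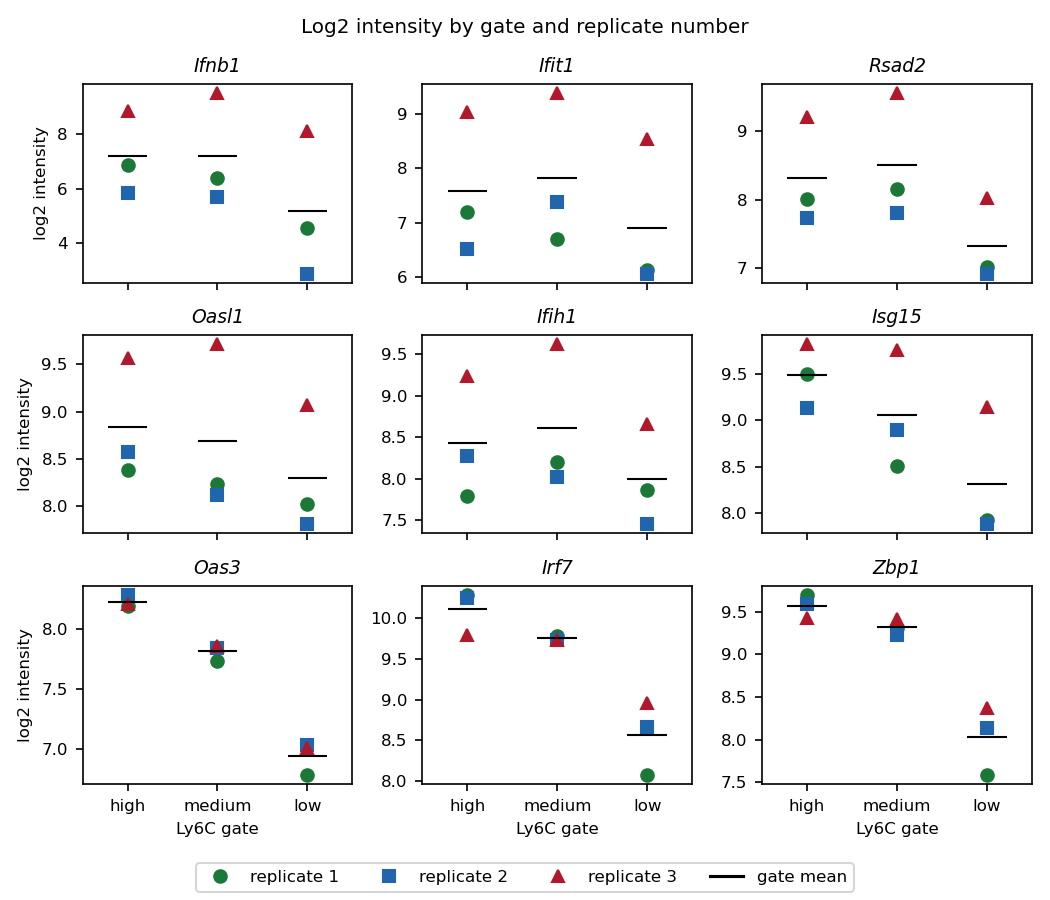
Log2 intensity (vertical axis, a separate scale in each panel) by Ly6C gate for Ifnb1, 5 genes that were highest on the arrays numbered 3, and Oas3, Irf7 and Zbp1; symbols are the single arrays by replicate number and the bar is the gate mean of 3. Red triangles lie on top in every gate for the first 6 genes, while Oas3, Irf7 and Zbp1 separate by gate.

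The rest of the pathway was read from lists that do not overlap with the members. Of 19 interferon genes, the fit of gate means passed 0 in each of the 3 comparisons with limma (0, 1 and 0 at an unadjusted p under 0.05 for low against high, medium against high and low against medium). Ifng, the gene of interferon gamma, lay at 3.08, 3.19 and 3.13 from high to low (adjusted p = 0.881 for low minus high). Of 19 further signalling genes, 2 were lower in low than in high and 1 higher, against 2.32% and 3.35% of all genes. Tlr9, the receptor for microbial DNA, was 2.22-fold lower (adjusted p = 0.0143), a call lost without high replicate 2, low replicate 1 or low replicate 2 (up to 0.0604). Socs3, a feedback inhibitor, was 1.66-fold lower (adjusted p = 0.0253), a call lost without high replicate 2 or 3 or low replicate 1 or 2 (up to 0.0938). It was also lost with the mean of the gene's probe sets (log2 difference -0.54, adjusted p = 0.113). Mavs, the adaptor that RIG-I and MDA5 signal through, went the other way, at 5.93, 6.42 and 5.96 in high, 6.33, 6.34 and 6.10 in medium and 7.29, 6.91 and 6.97 in low. All its low arrays were above all others, 1.94-fold above high (adjusted p = 0.0113, and 0.0947 without the arrays numbered 3). The receptor kinases Jak1 and Tyk2 had differences of 0.05 and 0.11 between low and high (adjusted p = 0.862 and 0.851). Irf3, which starts interferon production, and the inhibitor Socs1 had differences of 0.19 and -0.27 (adjusted p = 0.491 and 0.695). Irf8 and the RNA receptor gene Tlr7 had differences of -0.40 and -0.51 (adjusted p = 0.407 and 0.301).

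Among 45 other interferon-induced genes, 10 were lower in low than in high and 1 was higher, against 2.32% and 3.35% of all genes. Their median difference was -0.34, against 0.01 over all genes. In low versus medium, 5 of the 45 were lower and 0 higher, against 0.541% and 1.38% of all genes. Slfn1, a Schlafen gene, read 9.33, 9.48 and 9.41 in high, 8.69, 8.76 and 9.10 in medium and 6.41, 6.57 and 7.55 in low, 5.91-fold below high (adjusted p = 0.00142). Ms4a4c, a membrane protein gene, had gate means of 9.51, 9.14 and 7.48, with low 4.08-fold below high (log2 difference -2.03, SE 0.13, adjusted p = 0.000188). Ifi209, of the family of DNA-binding p200 proteins, had means of 9.21, 8.93 and 7.21 (4.0-fold, adjusted p = 0.0021). All 3 also fell between medium and low (adjusted p = 0.00991, 0.00172 and 0.0105), and the call of Ifi209 was lost without medium replicate 3 or low replicate 1 (up to 0.0537). The predicted gene Gm4951 rose instead, from 4.24 in high and 4.56 in medium to 6.18 in low (3.83-fold, adjusted p = 0.0148, and 0.0536 without high replicate 2). Of 16 genes known best for their answer to interferon gamma, 2 were lower in low than in high and 0 higher (4 and 1 at an unadjusted p under 0.05), with a median of -0.27. They were the guanylate-binding protein gene Gbp9 (1.97-fold, adjusted p = 0.0356) and the immunity-related GTPase gene Igtp (1.76-fold, adjusted p = 0.02). Gbp9 did not stay past the threshold without any of 6 arrays, high replicates 1 to 3, medium replicate 1 and low replicates 1 and 2 (up to 0.124), nor Igtp without high replicate 2 or low replicate 1 or 2 (up to 0.0774).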

How the data were processed

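The deposited values are log2 intensities per probe set, made by the authors with RMA per the submitters' processing notes, which corrects background, normalizes between arrays and summarizes probes; its version and settings, and the genome build, are not given in the sources used here. Per the labels' protocols, RNA was amplified to cDNA before labelling. The values were used as deposited. Of 41345 probe sets, 23521 named 1 gene, 1814 several and 16010 none in the probe table; only the first were used, with the brightest per gene, which left 22180 genes and no filter on dim ones. Of the 23521, 23328 matched RefSeq gene identifiers. All 9 arrays entered 1 fit of gate means (R 4.3.3, limma 3.58.1, lmFit and eBayes, two-sided, 6 residual degrees of freedom), with Benjamini-Hochberg adjustment over all genes. Arrays give no depth, and their number limits precision. The procedure was tested on simulated data.

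The members and lists were chosen with earlier results of these data known. Values on every array are given for members past the threshold with gates that do not overlap (up to 12), members past it in a comparison with medium, the receptor, factor and IFITM genes, and, after values were seen, the genes highest on the arrays numbered 3 and Usp18. Of other pathway genes, a fixed few were named whatever their test (Irf5 was not analysed here), with up to 4 called genes per list. Alternatives were other scalings, a dim filter, the mean of a gene's probe sets, other priors, array weights, the replicate number as a block, fits of 2 gates, a 2-fold minimum and leaving out each array; leaving out the arrays numbered 3 was added after seeing the data.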

Additional observations from a re-analysis of the deposited data

How the results depend on the processing

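Leaving out each array in turn gave 7 to 12 members called in low versus high (13 with all arrays), 0 to 1 in medium versus high (1) and 1 to 5 in low versus medium (4). Over all genes the counts ran from 596 to 1243 (1258), 2 to 72 (53) and 119 to 522 (427). With only the 2 gates compared in the fit, medium versus high gave 0 members (6 at an unadjusted p under 0.05) and 1 gene, low versus medium 2 and 211, and low versus high 9 and 644. Without the arrays numbered 3 the numbers were 0 (6 unadjusted) and 6, 0 (17 unadjusted) and 140, and 11 and 683. With a 2-fold minimum, 8 members and 598 genes remained in low versus high and 2 and 227 in low versus medium. Array weights gave 7 members and 601 genes in low versus medium. The check of the replicate numbers found 4 of 9 same-numbered pairs with a correlation over 0.1 (-0.02 to 0.31). All pairs numbered 3 were among them (0.31, 0.11 and 0.16), and 5 of 9 arrays correlated best with their own number. The main fit left the numbers out because no label says that they pair samples, and this check does not settle whether they do. With the replicate number as a block, limma called 16 members in low versus high, 10 of them among the 13, then 1 in medium versus high and 8 in low versus medium; over all genes the counts were 1564, 61 and 629. Isg15 and Rsad2 were among those gained, and Ifnar2, Ifitm3 and Xaf1 were lost. With the block, the limma adjusted p for low versus high was 0.0223 for Ifnb1, 0.03 for Cxcl10 and 0.00681 for Rsad2, and for low versus medium 0.0397 for Ifnb1. Every member called in low versus high under these settings was lower in low. Quantile normalization repeated changed the all-gene split in low versus medium from 120 lower and 307 higher to 162 and 242. It dropped Ifnar2 and added Dhx58 in low versus high. Counts were mostly smaller in fits with fewer arrays. Over all genes, however, medium versus high rose to 72 without high replicate 3, and low versus medium to 522 without low replicate 3. What changed the counts was not tested.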
